A study of Saccharomyces cerevisiae with 3 samples.

Results

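Of the genes that encode proteins of the large (60S) cytosolic ribosomal subunit of budding yeast, 80 were followed here, out of 4069 named genes on the array. They were chosen by symbol alone, as the RPL genes with their A and B copies and the stalk genes RPP0, RPP1A, RPP1B, RPP2A and RPP2B. Among the 80 genes are 34 complete A/B pairs and 11 genes whose symbol carries no A or B. Each gene was measured by 7 spots per array, 560 spots in all.

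The large subunit joins amino acids at its peptidyl transferase centre and passes the growing chain out through the exit tunnel, while a lateral stalk of P proteins recruits the translation factors. Most of its proteins are encoded in yeast by a pair of duplicated genes, a remnant of an ancient genome duplication. In most pairs the A and B copies give proteins that are identical or nearly so. Growing cells devote much of their RNA polymerase II transcription to these genes, and Rap1, Fhl1, Ifh1 and Sfp1 drive them under the control of the TOR and protein kinase A pathways. Lowered expression of ribosomal protein genes is a well known part of the response of yeast to environmental stress.

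RNA came from 3 independent cultures of wild-type BY4741, a haploid laboratory strain with deletions in HIS3, LEU2, MET17 and URA3, grown in rich medium. Cells exposed to 0.4 M NaCl for 15 minutes according to the labels, marked with Cy3, were set against cells of the same strain without NaCl, marked with Cy5, on 1 two-colour array per culture. The protocol text in the labels also speaks of a response to temperature, whereas the titles, the treatment fields and the study's methods name osmotic stress or NaCl, and the samples were taken as salt-treated. The dyes were not exchanged on any array, so an effect of NaCl and an effect of the dye on a gene cannot be told apart. In RNA from whole cultures, a strong change in some cells and a weak change in all cells cannot be told apart either.

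The deposited values carry no statement of their direction or log base. All 385 named genes that the study lists as induced by osmostress stood above 0 on every array, with a lowest mean of 0.72. The study made this list from its own microarray data, so a common sign was to be found and only its direction is informative. The values were therefore taken as log2, with NaCl in the numerator, and the base remains an assumption. The median over all named genes lay between -0.023 and -0.0010 on the 3 arrays, so that every ratio is relative to the middle of the array. The 4 genes deleted in the strain had values between -0.21 and 0.11. The number of arrays limits the precision, and the brightness of the spots was not analysed here.

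Upon osmostress, the mRNAs of the large subunit did not move as a block. Of the 80 genes, 25 rose, 4 fell and 51 did not pass the test, by limma (two-sided, against a ratio of 0 on the log2 scale, Benjamini-Hochberg over all 4069 genes, threshold 0.05). Thus 31.2% of the large-subunit genes rose, against 26.9% of all named genes, and 5% fell, against 27.9% of all named genes. The share that rose was thus close to that of the array as a whole, and the share that fell was smaller. No test of the difference between these shares was made. The mean log2 ratios ran from -1.68 for RPL22B to 1.24 for RPL16B, with a median of 0.16 against -0.0058 for all genes. The middle part of the genes, between the quartiles, lay between -0.047 and 0.46. Only RPP0 and RPL16B had a mean ratio above 2-fold, and only RPL22B had one below its inverse.

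**Figure D1:**
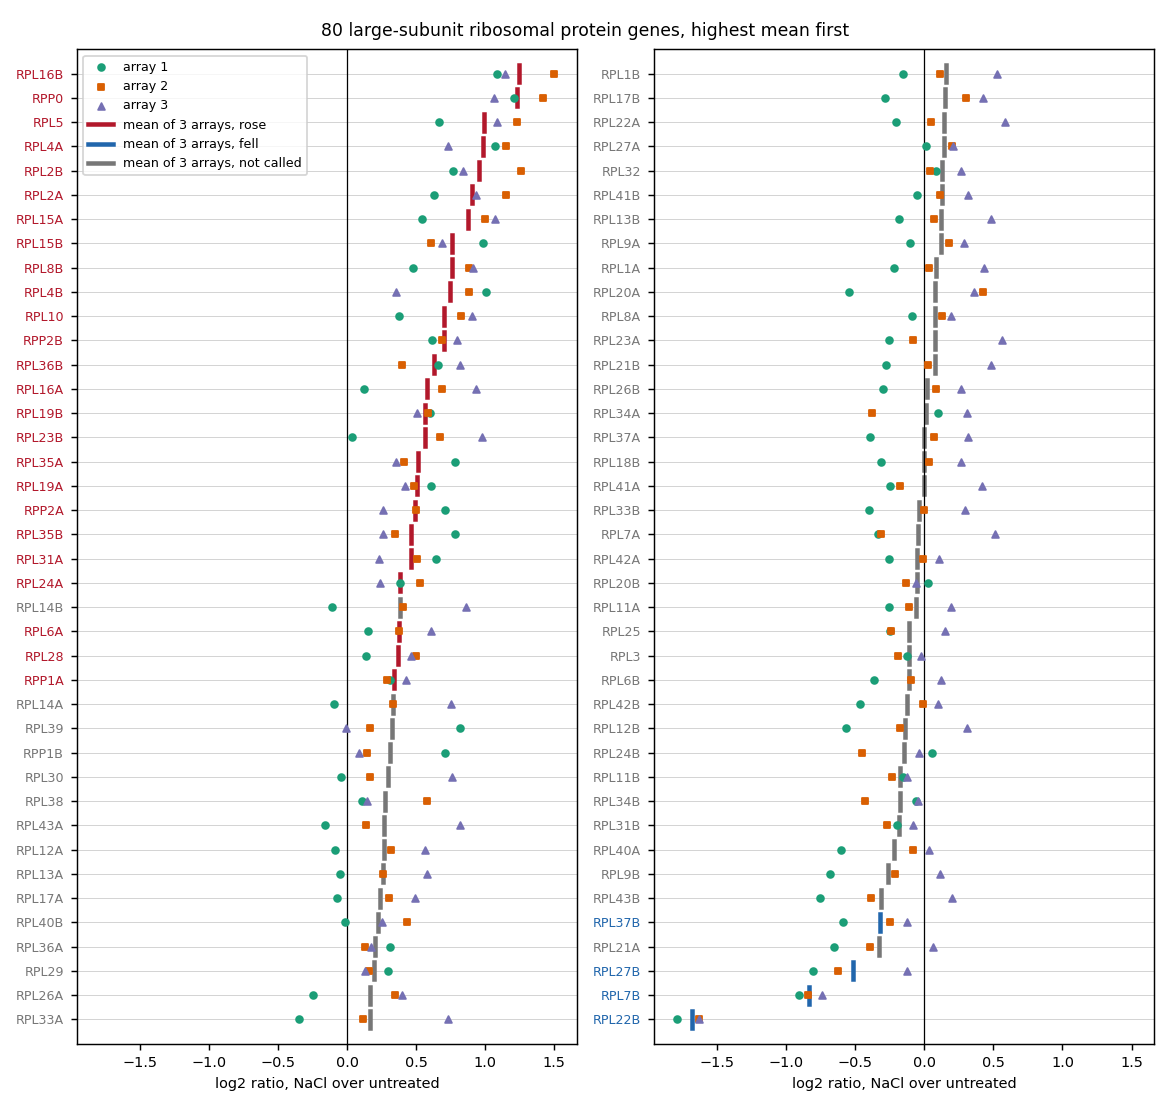
The log2 ratio of NaCl over untreated cells is plotted for each of the 80 genes on array 1 (circle), array 2 (square) and array 3 (triangle), with the mean as a bar coloured by the test (red rose, blue fell, grey did not pass) and genes ordered by their mean. RPL16B and RPP0 stand at the top with means of 1.24 and 1.23, RPL22B at the bottom with -1.68, and for many genes in the middle the 3 arrays lie on both sides of 0.

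The arrays differed more for these genes than for all named genes, and the same held for the small-subunit genes. The SD of a gene over the 3 arrays had a median of 0.27 for large-subunit genes and 0.26 for small-subunit genes, against 0.16 for all named genes. On array 1 the median of the 80 genes was -0.066 and 35 of them were above 0. On array 2 the median was 0.15 with 55 genes above 0, and on array 3 it was 0.34 with 69 genes above 0. The mean of these 3 medians was 0.14 ± 0.20 (SD, n = 3), so the median of the subunit did not differ from 0 by more than the spread between cultures. The value on array 3 exceeded that on array 1 for 63 of the 80 genes (78.8%), against 48.9% of all named genes, with a median difference of 0.41 against -0.011. The spots of a gene lay much closer together, with a median SD between spots of 0.079 to 0.099 on the 3 arrays. In all, 39 of the 80 genes (48.8%) had the same sign on all arrays, against 72.6% of all genes, 31 of them above 0 and 8 below.

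The remaining 17 genes had a lower value on array 3 than on array 1. Among them were RPL39 (0.82, 0.17 and -0.0099 on arrays 1, 2 and 3), RPL4B (1.00, 0.88 and 0.35) and RPP1B (0.71, 0.14 and 0.086). Both copies of RPL35, RPL19, RPL4 and RPL24 were among them too. Across the 80 genes, Pearson's correlation was 0.82 between arrays 1 and 2, 0.82 between arrays 2 and 3 and 0.59 between arrays 1 and 3, a description over genes that share their arrays. What set the arrays apart was not tested. Without array 1, 40 genes rose and 3 fell, and without array 3, 25 rose and 9 fell. Without array 2, 20 rose and 3 fell. Up to 40 or as few as 20 genes thus rose, depending on the array left out. Each of these fits also estimated the spread over all genes anew. Counts over all named genes in these fits are not given here, so whether such swings are particular to these genes was not tested.

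**Figure D2:**
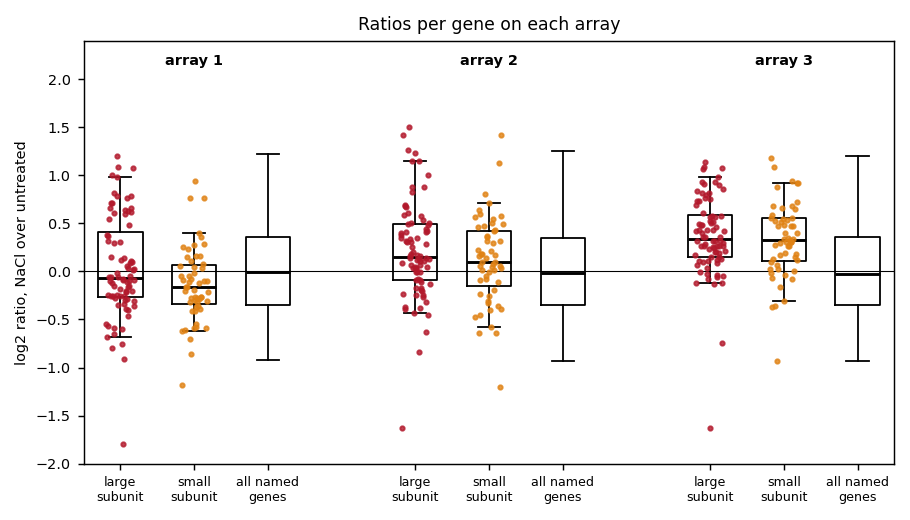
The log2 ratio per gene is plotted on each array for the 80 large-subunit genes (red points), the 55 small-subunit genes (orange points) and all 4069 named genes (box only), with boxes from the lower to the upper quartile, the median as a line and whiskers at percentiles 5 and 95. The medians of the large-subunit genes are -0.066, 0.15 and 0.34 on arrays 1, 2 and 3, and the median of all genes stays near 0.

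Of the stalk genes, RPP0 had the highest ratios. RPP0 encodes P0, the protein that anchors the stalk to the ribosomal RNA. Its log2 ratios were 1.21, 1.42 and 1.06 on arrays 1, 2 and 3, a mean of 1.23 ± 0.18 (SD, n = 3) or 2.34-fold (limma, adjusted p = 4.02e-05). All 3 arrays were far above 0, and the call held whichever array was left out. RPP2A, for one of the acidic P2 proteins bound at the stalk, had 0.71, 0.50 and 0.26, a mean of 0.49 ± 0.22 (adjusted p = 0.00667). RPP2B, for the other, had 0.61, 0.69 and 0.79, a mean of 0.70 ± 0.089 (adjusted p = 0.000476). For both P2 genes, every array lay above 0. RPP1A, for a P1 protein, rose by less, with 0.31, 0.29 and 0.43 and a mean of 0.34 ± 0.075 (limma, adjusted p = 0.0144), and its call was lost without array 2 (adjusted p = 0.117) and without array 3 (0.0812). RPP1B, the other P1 gene, had 0.71, 0.14 and 0.086 and did not pass (adjusted p = 0.0829), with array 1 far above the other arrays. RPL12A and RPL12B encode Rpl12, the protein at the base of the stalk. RPL12A had -0.089, 0.32 and 0.57 (adjusted p = 0.123) and RPL12B had -0.57, -0.17 and 0.31 (adjusted p = 0.470), so that neither passed and the arrays fell on both sides of 0. In all, 4 of the 7 stalk genes rose and none fell, where 26.9% of all named genes rose and 27.9% fell. RPP1A, whose call was lost without array 2 or array 3, is among the 4. Its mean was 0.37 without array 2 and 0.30 without array 3. The median of the 7 genes was 0.34, against -0.0058 for all genes.

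Rpl5 and Rpl11 join the large subunit together with the 5S ribosomal RNA, as a particle that forms beforehand. RPL5, which has a single copy, had log2 ratios of 0.66, 1.23 and 1.08 on arrays 1, 2 and 3, a mean of 0.99 ± 0.29 (SD, n = 3) or 1.99-fold (limma, adjusted p = 0.000329). RPL11A had -0.25, -0.11 and 0.19 (adjusted p = 0.684). RPL11B had -0.16, -0.24 and -0.12 (adjusted p = 0.145). Of the 3 genes of this particle only RPL5 passed, and no test was made of the difference between RPL5 and the RPL11 genes.

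Of the 4 genes whose proteins reach toward the peptidyl transferase centre, 3 rose, beside 26.9% of all named genes. RPL2A and RPL2B encode Rpl2, which lies close to the site where peptide bonds form, and RPL2A had 0.63, 1.15 and 0.93, a mean of 0.90 ± 0.26 (SD, n = 3, limma adjusted p = 0.000407). RPL2B had 0.77, 1.26 and 0.84, a mean of 0.95 ± 0.27 (adjusted p = 0.000325). Both copies were highest on array 2 and lowest on array 1, and no array was below 0.63. RPL10, for a protein that joins the subunit late, in the cytoplasm, had 0.37, 0.83 and 0.90 and a mean of 0.70 ± 0.29 (adjusted p = 0.00188). RPL3 stood apart from these genes with -0.13, -0.19 and -0.023 and did not pass (mean -0.11 ± 0.085, adjusted p = 0.334).

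Along the exit tunnel, 7 of 14 genes rose and none fell, where 26.9% of all named genes rose and 27.9% fell. RPL4A and RPL4B encode Rpl4, a loop of which lines the narrowest part of the tunnel. RPL4A had 1.07, 1.15 and 0.73, a mean of 0.98 ± 0.22 (SD, n = 3) or 1.98-fold (limma, adjusted p = 0.000191), and RPL4B averaged 0.75 ± 0.35 (adjusted p = 0.00223). Both copies of RPL19 rose as well, with means of 0.50 for RPL19A and 0.56 for RPL19B, and so did both copies of RPL35, with 0.52 for RPL35A and 0.46 for RPL35B. These proteins sit at the rim where the nascent chain leaves. Of the pair of RPL31 only the A copy passed, at 0.46 (adjusted p = 0.00800), a call lost without array 2 (adjusted p = 0.0580). The remaining tunnel genes did not pass. Among them were RPL25 (mean -0.11), whose protein is the main docking point for the signal recognition particle, both copies of RPL17 (0.24 for RPL17A and 0.15 for RPL17B) and RPL39 (0.33).

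The 2 genes of the L1 stalk, which guides the used tRNA out of the ribosome, did not pass and followed the arrays, with -0.22, 0.034 and 0.43 for RPL1A and -0.16, 0.11 and 0.53 for RPL1B. Of 7 genes listed for contacts with the small subunit, RPL24A rose (0.38, 0.53 and 0.24, mean 0.38 ± 0.14, SD, n = 3, limma adjusted p = 0.0119), a call lost without array 2 (adjusted p = 0.200). The other 6 did not pass. RPL30, whose protein holds back the splicing of its own transcript, had -0.043, 0.17 and 0.76 (adjusted p = 0.133), and the very short RPL41 genes had means of -0.0034 for RPL41A and 0.13 for RPL41B. RPL40A and RPL40B encode ubiquitin fused to a ribosomal protein and are thus a source of ubiquitin too. RPL40A had -0.60, -0.085 and 0.038 (adjusted p = 0.204) and RPL40B had -0.017, 0.44 and 0.25 (adjusted p = 0.124), so neither passed, and the arrays lay on both sides of 0.

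The gene with the highest mean was RPL16B, for Rpl16, a protein of the ancient core that bacteria also have. It had 1.08, 1.50 and 1.14 on arrays 1, 2 and 3, a mean of 1.24 ± 0.23 (SD, n = 3) or 2.37-fold (limma, adjusted p = 5.68e-05), and RPL16A averaged 0.58 ± 0.42 (adjusted p = 0.0126). Rpl15 and Rpl8 are proteins that bind the ribosomal RNA early in assembly. RPL15A averaged 0.87 ± 0.29, RPL15B 0.76 ± 0.20 and RPL8B 0.76 ± 0.24, and all 3 rose and kept their calls whichever array was left out. RPL8A, in contrast, had -0.089, 0.13 and 0.20 and did not pass (adjusted p = 0.530). Rises were also found for RPL36B (0.63), RPL23B (0.56), RPL6A (0.38) and RPL28 (0.37), the gene at which cycloheximide resistance arises. The calls of RPL6A and RPL28 were lost without array 2 (adjusted p = 0.109 for RPL6A and 0.217 for RPL28) and without array 3 (0.133 for RPL6A and 0.0638 for RPL28). Of the 25 genes that rose, 20 kept the call whichever array was left out, and all 25 were above 0 on every array.

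The 4 genes that fell were all B copies. RPL22B had log2 ratios of -1.79, -1.63 and -1.63 on arrays 1, 2 and 3, a mean of -1.68 ± 0.095 (SD, n = 3), which leaves 0.312 of the untreated level relative to the array (limma, adjusted p = 3.87e-06). It was the lowest of the 80 genes on every array, and its values hardly differed between arrays. Rpl22 protein is known to bind the intron of the RPL22B transcript and to reduce its splicing. RPL7B, a copy of the gene of Rpl7, had -0.91, -0.84 and -0.74, a mean of -0.83 ± 0.085 (adjusted p = 0.000187). RPL27B had -0.80, -0.63 and -0.12, a mean of -0.52 ± 0.35 (adjusted p = 0.0131), and its value on array 3 was the nearest to 0. RPL37B had -0.59, -0.25 and -0.13, a mean of -0.32 ± 0.24 (limma, adjusted p = 0.0433), and this call was lost without array 1 (adjusted p = 0.0849), without array 2 (0.136) and when the arrays were centred on their medians (0.0532). RPL21A (-0.65, -0.40 and 0.063, mean -0.33 ± 0.36) and RPL43B (-0.75, -0.38 and 0.20, mean -0.31 ± 0.48) had means close to that of RPL37B, but were above 0 on array 3 and did not pass (adjusted p = 0.0770 for RPL21A and 0.147 for RPL43B).

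Genes with a single copy and genes in pairs were counted apart, without a test between them. Of the 11 genes without an A or B in their symbol, 4 rose (RPP0, RPL5, RPL10 and RPL28), none fell and 7 did not pass, with a median of 0.29. Of the 68 genes in complete pairs, 21 rose and 4 fell, with a median of 0.15. Over all named genes 26.9% rose and 27.9% fell, with a median of -0.0058. The 7 single genes that did not pass had means from -0.11 for RPL3 to 0.33 for RPL39.

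Within each of the 34 pairs, the A copy was compared with the B copy on the same array. The difference of their log2 ratios (A minus B) asks whether the copies of a duplicated gene responded alike. It was tested with limma over all 60 A/B pairs of named genes on the array, of which 40.0% differed. Of the 34 large-subunit pairs, 15 differed, 9 with the A copy higher and 6 with the B copy higher, against 34.6% of the 26 other pairs. The share among the large-subunit pairs (15 of 34) was near that of all 60 pairs, which include these 34. Of the 26 other pairs, 24 were pairs of small-subunit genes, of which 8 differed, and 2 were of other genes. The comparison is thus mainly with the other ribosomal subunit and not with duplicated genes at large. Copies of many such pairs, though not of all, are nearly identical in their coding sequence. Where a spot measures both copies, the difference is understated and the copies look more alike. The sequences of the spots were not analysed here, so their part in the result was not tested. With 3 arrays, an exact two-sided sign permutation of one pair could not go below p = 0.25, and none is given.

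**Figure D3:**
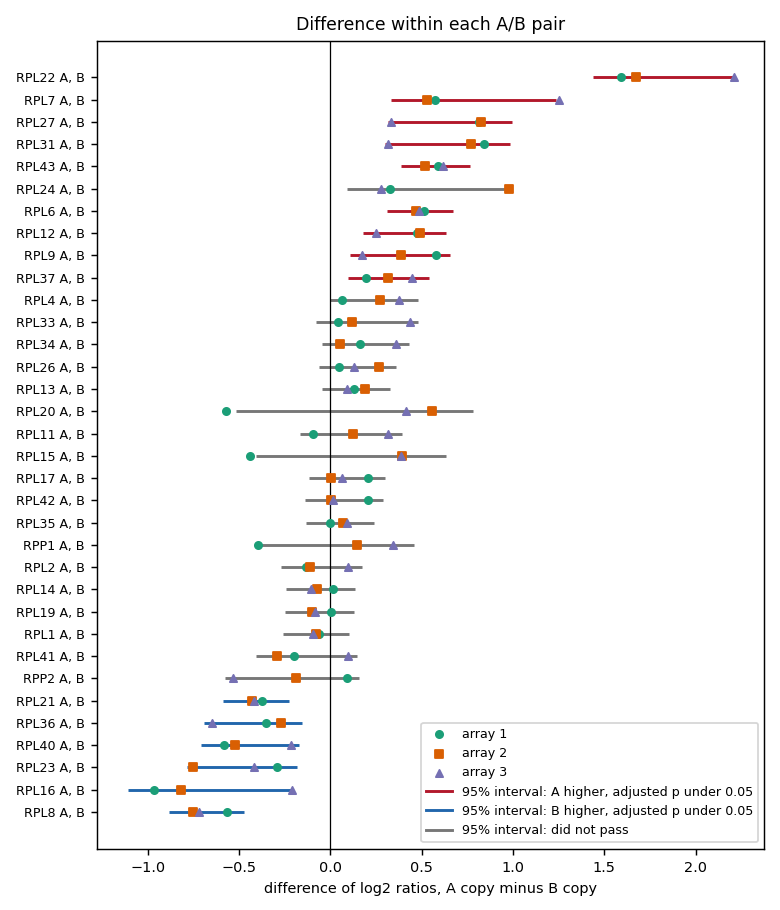
The difference of the log2 ratios, A copy minus B copy, is plotted for the 34 large-subunit pairs on each array (symbols), with the 95% interval of the mean from limma as a line, red where A and blue where B was higher at an adjusted p under 0.05 and grey otherwise. RPL22 lies furthest to the right at a mean of 1.82 and RPL8 furthest to the left at -0.68.

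The widest gap was that of RPL22. RPL22A had -0.20, 0.048 and 0.58 on arrays 1, 2 and 3 (mean 0.14 ± 0.40, SD, n = 3), against the values of RPL22B given above. The differences were 1.59, 1.68 and 2.21, a mean of 1.82 ± 0.34 (limma, adjusted p = 0.00518), and RPL22A itself did not pass against 0 (adjusted p = 0.441). RPL7 was alike in kind, with RPL7A at -0.33, -0.31 and 0.51 (mean -0.045 ± 0.48) above RPL7B by 0.57, 0.53 and 1.25, a mean of 0.79 ± 0.41 (adjusted p = 0.0296). In RPL27 the A copy had 0.013, 0.20 and 0.21 and exceeded the B copy by 0.66 ± 0.28 (adjusted p = 0.0248). In these 3 pairs the B copy fell while the A copy did not pass. In RPL31, RPL31A had 0.64, 0.50 and 0.23 and RPL31B -0.20, -0.27 and -0.083, a difference of 0.64 ± 0.29 (adjusted p = 0.0254).

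Other pairs differed the opposite way, with the B copy higher. RPL8A had the values given above and RPL8B had 0.48, 0.88 and 0.91, so that A minus B was -0.57, -0.75 and -0.72, a mean of -0.68 ± 0.098 (SD, n = 3, limma adjusted p = 0.00786). RPL16A had 0.12, 0.68 and 0.93 beside the values of RPL16B above, and A minus B was -0.96, -0.82 and -0.21, a mean of -0.66 ± 0.40 (adjusted p = 0.0361). Both copies of RPL16 rose, and their gap was narrowest on array 3. In RPL21, RPL23, RPL36 and RPL40 the B copy was higher too, with means of A minus B from -0.48 for RPL23 to -0.41 for RPL21. The A copy was higher in RPL43, RPL6, RPL12, RPL9 and RPL37, with means from 0.32 for RPL37 to 0.58 for RPL43.

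Most of these calls were lost when 1 of the arrays was left out, which leaves 2 arrays in the fit. Calls were lost also where the arrays lay close together. RPL6 differed by 0.51, 0.47 and 0.49 on arrays 1, 2 and 3. It still did not pass without array 1 (limma, adjusted p = 0.0662) or without array 2 (0.0936). Without array 1 only RPL22 and RPL8 passed, both with an adjusted p of 0.0407 (limma). Without array 2, 7 pairs passed, and without array 3, 13 passed. Only RPL22 and RPL8 kept the call whichever array was left out.

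In 7 pairs both copies rose (RPL2, RPL4, RPL15, RPL16, RPL19, RPL35 and RPP2), in none did both fall, and in none did one copy rise while the other fell. In 16 pairs neither copy passed. Over all 60 A/B pairs, which include these 34, both copies rose in 9 and neither passed in 28. None of the 60 had both copies fall, and none had a copy that rose beside a copy that fell. RPL35A had 0.78, 0.41 and 0.35 and RPL35B 0.78, 0.35 and 0.26, which gave A minus B of 0.052 ± 0.049 (SD, n = 3, 95% interval -0.13 to 0.24). For RPL2, A minus B was -0.050 ± 0.13 (-0.27 to 0.17), and for RPP1 it was 0.031 ± 0.38 (-0.40 to 0.46). These were the narrowest differences of the 34 pairs. The interval of RPP1 is wide enough to hold differences as large as many of those that passed, and RPP1B was high on array 1 alone. Across the 34 pairs, Pearson's correlation between the means of the A and B copies was 0.51 (Spearman 0.47), and 0.58 without RPL22, a description over pairs that share their arrays.

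In many pairs the copies shared their spread between arrays. The SD of a copy over the arrays had a median of 0.28 in these pairs, whereas the SD of A minus B had a median of 0.18. In 19 of 34 pairs the difference varied less than either copy. The small-subunit pairs were alike, with medians of 0.26 and 0.15, and in 15 of 24 the difference varied less than either copy. Genes of different pairs were not compared in this way, so whether the sharing is particular to copies was not tested. A spot that measures both copies would give them shared values too, and whether any spot did so was not tested. RPL43 shows the shared spread plainly. RPL43A had -0.16, 0.14 and 0.82 and RPL43B -0.75, -0.38 and 0.20, each spread over about 1 unit of log2 ratio, yet the differences were 0.59, 0.52 and 0.62 (mean 0.58 ± 0.051, SD, n = 3, limma adjusted p = 0.00854). In RPL6, RPL6A had 0.15, 0.38 and 0.61 and RPL6B -0.36, -0.094 and 0.12, with differences of 0.51, 0.47 and 0.49 (adjusted p = 0.0105). In RPL21, the differences were -0.38, -0.43 and -0.42 (adjusted p = 0.0164). Neither copy of RPL43 and RPL21 passed when set against 0, but their difference passed in the comparison within arrays. In 6 pairs the difference varied more than either copy. In RPL20, RPL20A had -0.54, 0.43 and 0.36 and RPL20B 0.028, -0.13 and -0.057, so that A minus B was -0.57, 0.56 and 0.41 (adjusted p = 0.635). RPL15 had differences of -0.44, 0.39 and 0.39, likewise with array 1 on the other side of 0 (adjusted p = 0.625).

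**Figure D4:**
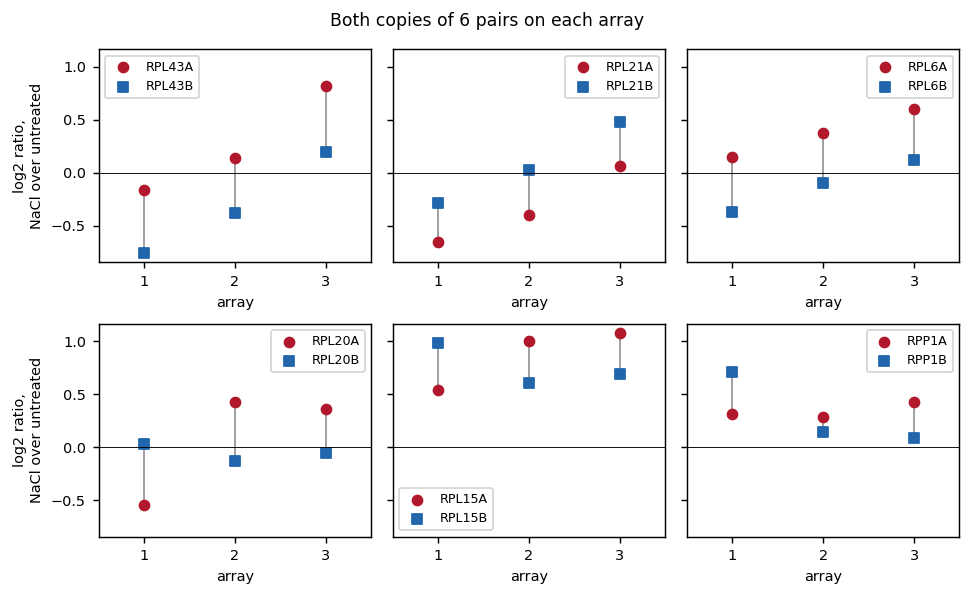
The log2 ratio of NaCl over untreated cells is plotted for the A copy (red circle) and the B copy (blue square) of 6 pairs on arrays 1, 2 and 3, joined by a grey line on each array. In RPL43, RPL21 and RPL6 the copies keep their distance on every array, and in RPL20, RPL15 and RPP1 the order of the copies on array 1 is the opposite of that on arrays 2 and 3.

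Some of these genes neighbour other ribosomal protein genes in the order of the R64 gene table, and their values are given side by side without a test. Values increased from array 1 to 2 to 3 in 46 of the 80 large-subunit and 38 of the 55 small-subunit genes. Over all 4069 named genes, 1156 did so. That order is thus common among ribosomal protein genes, and whether neighbours shared it more was not tested. RPL21A is next to RPS9B, which had -0.42, -0.33 and 0.0023 on arrays 1, 2 and 3, lowest on array 1 and highest on array 3 as RPL21A was. RPL13A (-0.053, 0.26 and 0.58) lies between RPS16B (-0.28, 0.31 and 0.52) and RPP1A, and its copy RPL13B (-0.18, 0.067 and 0.48) lies next to RPS16A (-0.70, -0.11 and 0.40). Both RPL13 genes and both RPS16 genes were also lowest on array 1 and highest on array 3, and so were RPL18B (-0.31, 0.035 and 0.27) and its neighbour RPS19B (-0.59, -0.40 and 0.18). Other neighbours differed in their order. RPP1A, next to RPL13A, had 0.31, 0.29 and 0.43 on arrays 1, 2 and 3, lowest on array 2 and highest on array 3. RPL39 was highest on array 1 (0.82), where its neighbour RPS22A had its lowest value (-0.27). RPL24A was lowest on array 3 (0.24), where RPL30 was highest (0.76). RPP2A was highest on array 1, where its neighbour RPS15 (0.40, 0.56 and 0.92) was lowest.

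The 55 genes of the small (40S) subunit are the nearest group by function. Of the large-subunit genes 31.2% rose and 5% fell, against 25.5% and 9.1% of the small-subunit genes. The medians on arrays 1, 2 and 3 were -0.066, 0.15 and 0.34 for the large subunit, and -0.17, 0.10 and 0.32 for the small subunit. Of the large-subunit genes 78.8% were higher on array 3 than on array 1, against 92.7% of the small-subunit genes, so the difference between arrays was seen in both subunits. The same sign on all arrays was found for 48.8% of the large-subunit and 41.8% of the small-subunit genes. No test between the subunits was made.

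Genes whose products help to build the large subunit were listed as well. Of 18 listed chaperones of large-subunit proteins and factors of 60S maturation, 12 were measured, of which 9 fell and none rose, with a median of -0.76. Over all named genes 27.9% fell and 26.9% rose, with a median of -0.0058. MRT4 encodes the relative of P0 that holds its place on the immature particle. It had -0.82, -1.11 and -1.13 on arrays 1, 2 and 3 (mean -1.02 ± 0.18, SD, n = 3, limma adjusted p = 0.000111), and RPP0 lay above it by 2.25 ± 0.26 within arrays (SD, n = 3). RLP24 holds the place of Rpl24 and averaged -1.20 ± 0.19 (adjusted p = 5.35e-05), with RPL24A above it by 1.58 ± 0.20 and RPL24B by 1.05 ± 0.27. RLP7, related to the RPL7 genes, averaged -1.28 ± 0.30 (adjusted p = 9.8e-05). RPL7A lay above it by 1.23 ± 0.67 and RPL7B, which itself fell, by 0.45 ± 0.37. SQT1 encodes the chaperone of Rpl10 and averaged -1.05 ± 0.035 (adjusted p = 4.62e-05), with RPL10 above it by 1.75 ± 0.25. RRB1, the chaperone gene of Rpl3, averaged -0.42 ± 0.097 (adjusted p = 0.00650), near RPL3, which lay 0.30 ± 0.12 above it. The call of RRB1 was lost without array 2 (adjusted p = 0.109). BCP1, for the chaperone of Rpl23, did not pass (mean 0.21, adjusted p = 0.0886). RPL23A minus BCP1 was -0.14 ± 0.51 and RPL23B minus BCP1 was 0.35 ± 0.53. Both differences were negative on array 1 and positive on array 3. The differences within arrays are given without a test. The largest falls were those of ARX1, for a factor of nuclear export of the subunit, at -1.87 (adjusted p = 5.13e-06) and of NOG1, for a GTPase of assembly, at -1.37 (adjusted p = 2.67e-05).

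**Figure D5:**
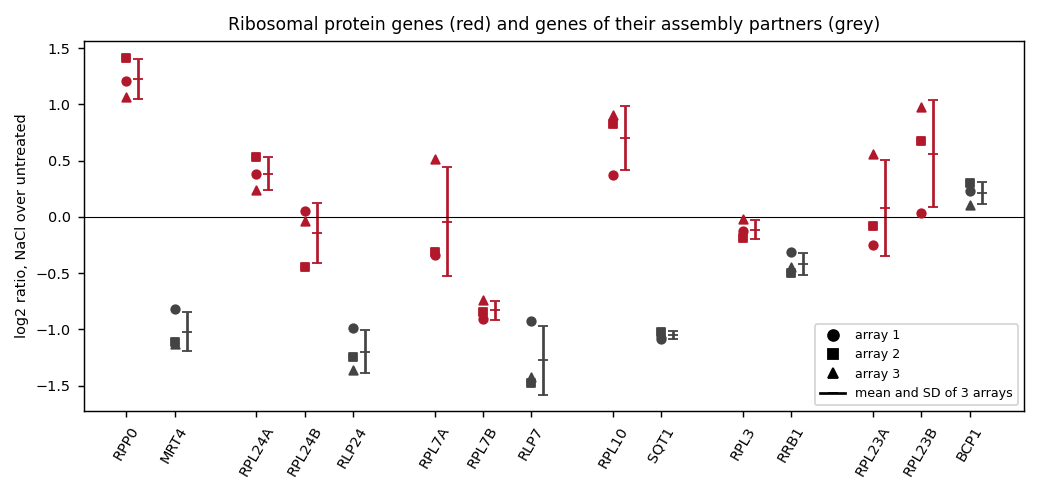
The log2 ratio of NaCl over untreated cells is plotted for ribosomal protein genes (red) and the genes of the chaperone or placeholder of their protein (grey) on each array, with the mean and SD of the 3 arrays as a bar. RPP0 averages 1.23 beside MRT4 at -1.02, and RPL10 averages 0.70 beside SQT1 at -1.05.

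Of 12 listed regulators of ribosomal protein genes, 11 were measured, of which 5 fell and 1 rose, where 27.9% of all named genes fell and 26.9% rose. IFH1, whose protein activates these genes from their promoters, had -0.66, -0.89 and -1.20 (mean -0.91 ± 0.27, SD, n = 3, limma adjusted p = 0.000420), and FHL1, which recruits it, averaged -0.56 ± 0.18 (adjusted p = 0.00240). SCH9, for a kinase under TOR control, averaged -0.63 (adjusted p = 0.00113), ABF1 -0.59 (0.00473) and TOR2 -0.39 (0.00782). The call of TOR2 was lost without array 2 (adjusted p = 0.0834). SFP1, for another activator, rose by 0.50 (0.35, 0.50 and 0.65, adjusted p = 0.00377). RAP1 (0.040), HMO1 (-0.0064), REB1 (-0.068), TOR1 (0.061) and KOG1 (-0.067) did not pass.

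Of 11 genes for proteins that meet the nascent chain at the tunnel exit, 4 rose and 2 fell, near the shares over all named genes (26.9% rose and 27.9% fell). SSB1 and SSB2, for the ribosome-bound Hsp70 chaperones, averaged 0.82 (adjusted p = 0.000472) and 0.59 (0.00155). EGD1 and EGD2, for the subunits of the nascent polypeptide-associated complex, averaged 0.52 (0.0206) and 0.56 (0.00332), and the call of EGD1 was lost without array 3 (adjusted p = 0.0665). SSZ1, for a partner of the Ssb chaperones, fell by 0.52 on the log2 scale (limma, adjusted p = 0.00318), and ARD1, for the catalytic subunit of an N-terminal acetyltransferase, fell by 0.41 (adjusted p = 0.0107), a call lost without array 2 (adjusted p = 0.152).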

How the data were processed

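For each of 3 cultures, RNA of stressed and of non-stressed cells was hybridised to 1 two-colour array. The authors deposited a value per spot and array, taken here as a normalized log2 ratio because the base is not stated. Of tools, the submitters' processing notes give limma only. Which version, the correction of background, the way of normalizing and filters on spots: not given in the sources used here. Of 45220 spots, 28532 carried a single platform symbol. After 129 of 4073 symbols were updated through synonyms of the R64 table, used for names and gene order only, 4069 genes remained.

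Spots were averaged by gene and array. An intercept was fitted to the 3 ratios with limma 3.58.1 (R 4.3.3) and empirical Bayes. P-values were two-sided, with Benjamini-Hochberg adjustment at 0.05 over 4069 genes or, for A minus B, over 60 pairs. "Rose" and "fell" refer to this threshold. The procedures were run on simulated data with independent noise for each gene. Such data lack the difference between arrays that many of these genes shared, so the run checks the code and not the calls made here. Python 3.11.15 with pandas 2.3.3, numpy 2.4.6 and matplotlib 3.10.9 served for summaries and plots.

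Values per array are given for the 6 lowest and 6 highest genes, those that fell, the stalk, 5S particle and ubiquitin fusion genes, the 8 widest of the pairs that passed and the 3 narrowest pairs. Further genes were named after their values were seen. The genes, lists and tests were chosen with earlier results of these data known. Alternatives were the median of spots, arrays centred or scaled, each replicate left out, robust moderation, limma's test against a fold of 1.2, a threshold of 0.01 and, for pairs, the prior spread of all genes.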

Additional observations from a re-analysis of the deposited data

How the results depend on the processing

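No gene or pair that passed changed its direction under any alternative run. The median of spots and robust empirical Bayes left the call of every large-subunit gene and pair as it was, and centring or scaling the arrays changed that of RPL37B alone (adjusted p = 0.0532 and 0.0537). The number of genes that rose, 25, was 20 to 40 when each replicate was left out in turn and 14 in a test against a fold of 1.2. The number that fell, 4, was 3 to 9 when each replicate was left out, 2 in the test against a fold of 1.2 and 2 at a threshold of 0.01. The number of pairs that differed, 15, was 2 to 13 when each replicate was left out and 3 at a threshold of 0.01. With the prior spread over all genes 14 pairs differed, with RPL24 gained (adjusted p = 0.0498) and RPL37 (0.0995) and RPL9 (0.0699) lost. The mean of the 3 array medians, 0.14, was 0.042 to 0.24 when each replicate was left out, less than 1 SD from the value over all arrays. Leaving out a replicate leaves 2 arrays per fit. Counts over all named genes under these alternatives are not given here. No further paired analysis was possible because both channels of a culture already share 1 array. The brightness of the spots was not analysed here, so its limit on small ratios is unknown.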
